A study of Homo sapiens with 6 samples.

Results

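Integrins and laminins are the receptors and one of the matrix ligands by which cells hold on to a basement membrane. The genes described here are all integrin alpha, integrin beta and laminin chains that the deposited comparison table names. They were chosen by their official symbols and by no measured value, though earlier results of these data were known. The set holds 38 of 27259 genes. It has 18 integrin alpha chains, 8 integrin beta chains and 12 laminin chains, of which 5 are alpha, 4 beta and 3 gamma chains. RNA-seq was performed on the established human glioblastoma line U87MG after a 24 h infection. One group received a control lentivirus (U87MG-control) and the other a virus that carried LMO2 (U87MG-LMO2), with 3 libraries in each. LMO2 encodes a LIM-domain adaptor protein, and the study asked which genes change when it is overexpressed. In both groups the cells were grown in the same medium with 10% fetal bovine serum, whose matrix proteins are not measured by RNA-seq. The study's methods place LMO2 in a lentiviral vector with a CMV promoter and a puromycin marker. Which construct served for these libraries, and whether the infected cells were selected or cloned, is not given in the sources used here.

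An integrin is a heterodimer of 1 alpha and 1 beta chain that crosses the plasma membrane, binds the matrix outside and links to actin through talin and kindlin inside. The beta chain largely sets the link to the cytoskeleton, and the pair of chains sets the ligand: laminin, collagen, proteins with an RGD sequence such as fibronectin and vitronectin, or counter-receptors on other cells. A laminin is a trimer of 1 alpha, 1 beta and 1 gamma chain, named by the numbers of its chains, so that laminin 411 holds LAMA4, LAMB1 and LAMC1. In glioblastoma, integrins and laminins are known for their part in invasion along vessels and white matter.

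Depth was 11428432 to 13537284 expected counts in the U87MG-control libraries and 14630627 to 17892955 in the U87MG-LMO2 libraries, each of which was deeper than each control. LMO2 itself was at 0.38, 0.46 and 0.24 FPKM in U87MG-control replicates 1 to 3 and at 211.62, 192.56 and 507.93 FPKM in U87MG-LMO2 replicates 1 to 3. FPKM, a read count scaled to gene length and to the mapped reads of the library, is a level per length, so levels of different genes can be set side by side. U87MG-LMO2 replicate 3 held the most LMO2 and stood apart for several chains described here, so results that rest on it are given with and without it. Of the markers looked at, VIM, a mesenchymal filament, was at 5121.74 FPKM or more in every library and NES, a neural progenitor filament, between 6.64 and 8.71 FPKM. The astrocytic markers S100B and AQP4 and the neural stem cell factor SOX2 were at 0.09 FPKM or less in every library.

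The start regions of the called members that the RefSeq promoter table (GRCh38.p14) covers are shown first. They are ITGA6, ITGAV and LAMA5, of the 5 chains called between the groups. Each is the 250 bases before an annotated start, 5′ to 3′ on the gene's strand, with every CG dinucleotide in capitals. Where a gene has several windows, the one nearest its start in GENCODE is used. Which start U87MG uses was not tested.
ITGA6 (chr2:172427086-172427335, plus strand): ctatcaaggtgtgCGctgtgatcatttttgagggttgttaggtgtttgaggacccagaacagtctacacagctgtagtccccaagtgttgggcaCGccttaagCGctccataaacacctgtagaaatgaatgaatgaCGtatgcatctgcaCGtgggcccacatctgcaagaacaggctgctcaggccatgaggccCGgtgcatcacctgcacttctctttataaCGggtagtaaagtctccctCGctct
ITGAV (chr2:186589806-186590055, plus strand): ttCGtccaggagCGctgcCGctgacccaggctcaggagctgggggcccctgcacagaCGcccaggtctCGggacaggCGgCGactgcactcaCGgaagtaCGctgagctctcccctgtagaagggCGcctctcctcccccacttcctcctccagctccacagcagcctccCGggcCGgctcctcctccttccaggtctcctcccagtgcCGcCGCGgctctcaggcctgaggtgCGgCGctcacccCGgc
LAMA5 (chr20:62367313-62367562, minus strand): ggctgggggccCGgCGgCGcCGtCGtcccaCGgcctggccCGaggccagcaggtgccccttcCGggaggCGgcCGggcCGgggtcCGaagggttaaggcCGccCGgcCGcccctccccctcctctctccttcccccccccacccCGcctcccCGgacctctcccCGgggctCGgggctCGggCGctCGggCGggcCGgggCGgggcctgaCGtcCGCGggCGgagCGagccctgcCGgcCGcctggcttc
The ITGA6 window held 8 CG dinucleotides, the ITGAV window 18 and the LAMA5 window 32, against a median of 11 over all windows of the table. Their GC content was 50.8%, 70.8% and 82.8%, against a median of 58.0%. Since the study addresses the transcription factor STAT3, the STAT motif TTCNNNGAA, whose reverse complement is itself, was searched. It stood in 6.57% of the 35116 windows, in none of the 3 above, and in the windows of ITGAE and LAMB2 among the 26 members matched by symbol.

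Among the integrin chains of U87MG, ITGA3, ITGA5 and ITGB1 stood far above the others. Of all 38 chains, 11 had a mean over the 6 libraries of at least 10 FPKM, 8 lay between 1 and 10 FPKM and 19 were below 1 FPKM. A chain was counted as present in a group where it reached 1 FPKM in each of the group's 3 libraries. By that rule 19 chains were present in U87MG-control and 19 in U87MG-LMO2, made up in either group of 8 integrin alpha, 3 integrin beta and 8 laminin chains.

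**Figure D1:**
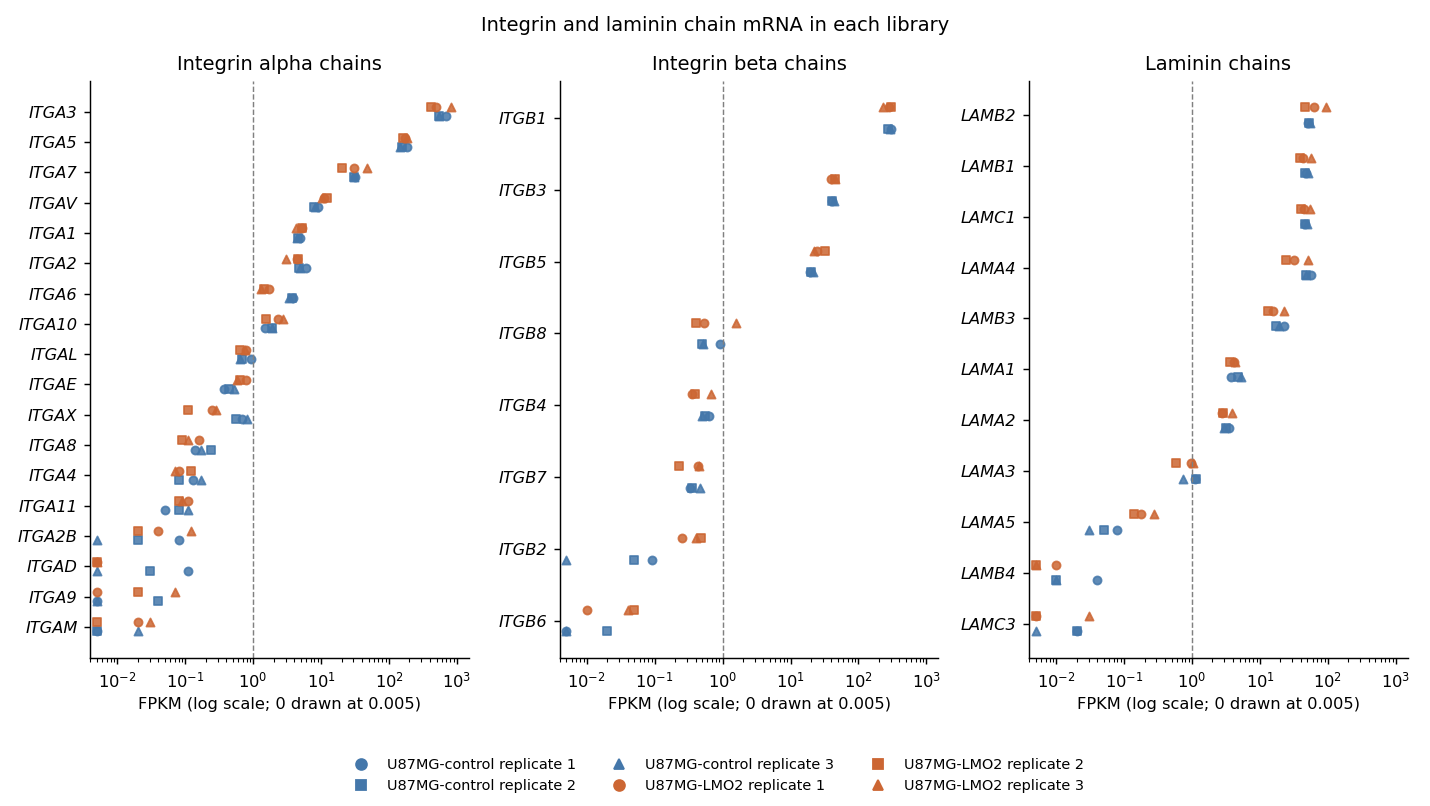
FPKM of 37 of the 38 chains in each library, on a log axis, in panels for integrin alpha, integrin beta and laminin chains ordered by mean level; colours are groups, marker shapes are replicates, and the dashed line is 1 FPKM. ITGA3, ITGA5 and ITGB1 lie above 100 FPKM in every library, and 19 chains have a mean below 1 FPKM.

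The integrin beta chains, which decide which alpha chains can reach the surface, were dominated by ITGB1. ITGB1, the partner of most alpha chains, was at 297.93, 275.32 and 293.27 FPKM in the U87MG-control libraries and at 278.45, 296.11 and 231.02 FPKM in the U87MG-LMO2 libraries. It made up 82.0% ± 0.742 of the summed beta chain FPKM in U87MG-control and 78.8% ± 2.2 in U87MG-LMO2 (SD, n = 3). The groups overlapped in its level, and the log2 fold change was -0.07 (SE 0.10, edgeR adjusted p 0.70). Here and below, log2 fold changes are of normalised counts, U87MG-LMO2 over U87MG-control, and p values are adjusted over all genes tested, with a threshold of 0.05.

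ITGB3, the beta chain of the vitronectin receptor and of the platelet fibrinogen receptor, was at 40.69, 41.02 and 43.14 FPKM in U87MG-control and 40.04, 44.84 and 45.85 FPKM in U87MG-LMO2. Its groups overlapped, with a log2 fold change of 0.11 (SE 0.11, edgeR adjusted p 0.551). In GENCODE release 29, 51.6% of the ITGB3 exon bases are also exons of a same-strand readthrough gene model, while its deposited counts were whole numbers in every library. ITGB5, a second partner of ITGAV in vitronectin binding, was at 19.08, 20.14 and 21.26 FPKM in U87MG-control and at 24.45, 32.04 and 22.18 FPKM in U87MG-LMO2. Every U87MG-LMO2 library lay above every control for ITGB5, but its log2 fold change of 0.43 (SE 0.13) was not called (edgeR adjusted p 0.0857). Without U87MG-LMO2 replicate 3 it passed, at a log2 fold change of 0.50 (edgeR adjusted p 0.0225).

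The other 5 beta chains were all below 1 FPKM on average. ITGB8, a partner of ITGAV, had a mean of 0.643 ± 0.24 FPKM in U87MG-control and 0.843 ± 0.65 FPKM in U87MG-LMO2 (SD, n = 3), with 1.59 FPKM in U87MG-LMO2 replicate 3 alone. ITGB4, the epithelial hemidesmosome chain that pairs with ITGA6, was at 0.563 ± 0.0651 and 0.477 ± 0.177 FPKM. ITGB7, a lymphocyte chain, was at 0.387 ± 0.0737 and 0.37 ± 0.122 FPKM, and 42.1% of its exon bases are shared with ZNF740 on the opposite strand. ITGB6, an epithelial partner of ITGAV, had at most 3 counts in any library. The remaining chain, ITGB2, is described with the leukocyte integrins.

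The laminin-binding alpha chains held the most abundant and the most clearly changed integrin mRNA. ITGA3, which with ITGB1 binds laminins that hold LAMA3 or LAMA5, was at 691.46, 546.19 and 545.69 FPKM in U87MG-control and at 498.44, 413.30 and 820.72 FPKM in U87MG-LMO2. It made up 73.1% ± 0.949 of the summed alpha chain FPKM in U87MG-control and 70.5% ± 5.04 in U87MG-LMO2 (SD, n = 3). Its highest and its lowest value were both U87MG-LMO2 libraries. Its log2 fold change was 0.02 (SE 0.26, edgeR adjusted p 0.973), and without U87MG-LMO2 replicate 3 it was -0.39 (edgeR adjusted p 0.0572).

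ITGA6, the alpha chain of the broad laminin receptor and a surface marker often used for glioma stem cells, was lower in U87MG-LMO2. It was at 3.85, 3.74 and 3.34 FPKM in U87MG-control and at 1.72, 1.46 and 1.30 FPKM in U87MG-LMO2. The groups were far apart, and the highest U87MG-LMO2 library lay well under the lowest control. Its log2 fold change was -1.26 (SE 0.135), a 2.39-fold lower level, with an edgeR adjusted p of 0.00344. Each of the 15 alternative analyses kept this call, and its log2 fold change ranged from -1.33 to -0.90. In bulk RNA, fewer cells with ITGA6 and less ITGA6 mRNA per cell cannot be told apart. ITGA6 lies at chr2:172427354-172506282 on the plus strand of GRCh38, and its start window is shown above.

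ITGA7, a laminin receptor chain best known from muscle, was at 31.85, 30.45 and 30.20 FPKM in U87MG-control and at 31.03, 20.64 and 47.95 FPKM in U87MG-LMO2. The U87MG-LMO2 libraries lay on both sides of the controls, and the log2 fold change was 0.17 (SE 0.27, edgeR adjusted p 0.735). Without U87MG-LMO2 replicate 3 it was -0.25. Among the laminin-binding alpha chains, then, ITGA6 alone was called, and it was the least abundant of the 3. The FPKM ratio of ITGA6 to ITGA3 was 0.00618 ± 0.000642 in U87MG-control and 0.00286 ± 0.0011 in U87MG-LMO2 (SD, n = 3).

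The RGD-binding alpha chains were led by ITGA5 and ITGAV. ITGA5, which with ITGB1 forms the main fibronectin receptor, was at 183.11, 155.55 and 144.40 FPKM in U87MG-control and at 169.28, 159.58 and 184.51 FPKM in U87MG-LMO2. The groups overlapped, with a log2 fold change of 0.13 (SE 0.13, edgeR adjusted p 0.548).

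ITGAV, the alpha chain shared by the vitronectin receptors, was higher in U87MG-LMO2. It was at 8.99, 7.92 and 8.04 FPKM in U87MG-control and at 11.18, 12.23 and 10.18 FPKM in U87MG-LMO2. The groups did not overlap, and the log2 fold change was 0.47 (SE 0.10), a 1.38-fold higher level, with an edgeR adjusted p of 0.0308. The call was held in 7 of 15 alternative analyses. Leaving out any 1 library other than U87MG-LMO2 replicate 3 raised the edgeR adjusted p above the threshold, to between 0.063 and 0.144 at log2 fold changes of 0.42 to 0.53, and the limma tests on FPKM gave 0.0924 and 0.089. ITGAV lies at chr2:186590065-186680901 on the plus strand of GRCh38. ITGA8, a further RGD receptor chain, had means of 0.183 ± 0.0513 and 0.12 ± 0.0361 FPKM (SD, n = 3).

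ITGAV was less abundant than the sum of its main beta partners in every library. ITGB3 and ITGB5 together held 7.46 ± 0.718 times the FPKM of ITGAV in U87MG-control and 6.25 ± 0.459 times in U87MG-LMO2 (SD, n = 3). The alpha chains as a whole held 2.30 ± 0.267 times the FPKM of the beta chains in U87MG-control and 2.44 ± 0.997 times in U87MG-LMO2, with 3.56 in U87MG-LMO2 replicate 3 and 1.66 in replicate 2. These are ratios of mRNA levels, and protein was not measured.

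The collagen-binding alpha chains were present at low levels, apart from ITGA11. ITGA1 had a mean of 4.617 ± 0.215 FPKM in U87MG-control and 4.897 ± 0.572 in U87MG-LMO2 (SD, n = 3), and its log2 fold change was 0.12 (edgeR adjusted p 0.535). ITGA2, which with ITGB1 is the collagen receptor of platelets and epithelia, was at 5.96, 4.73 and 4.92 FPKM in U87MG-control and at 4.39, 4.57 and 3.09 FPKM in U87MG-LMO2. Its groups did not overlap, but the log2 fold change of -0.34 (SE 0.152) had an edgeR adjusted p of 0.198 and was not called. ITGA10, a chain known from cartilage, was at 1.77 ± 0.225 and 2.203 ± 0.634 FPKM, with a log2 fold change of 0.31 (edgeR adjusted p 0.459). ITGA11, known from fibroblasts, had means of 0.08 ± 0.03 and 0.0933 ± 0.0153 FPKM.

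The leukocyte chains were all below 1 FPKM, and 2 of them were called in opposite directions. ITGB2, the common beta chain of the leukocyte integrins, had 3, 2 and 0 counts in U87MG-control and 12, 21 and 22 counts in U87MG-LMO2. Every U87MG-LMO2 library was above every control, and a library with 0 counts allows up to 3. Scaled to depth, the summed counts were 8.87 times as many in U87MG-LMO2 (95% exact interval 3.58 to 28.4, counting error only), and the edgeR adjusted p was 0.0281. ITGB2 passed the count filter through U87MG-LMO2 alone, its level there was 0.38 ± 0.118 FPKM (SD, n = 3), and 7 of 13 alternative analyses kept the call. Leaving out any 1 library other than U87MG-LMO2 replicate 3 gave edgeR adjusted p values of 0.0537 to 0.109.

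Reads of ITGB2 cannot be told apart from those of its antisense partner where both have exons, because the strand setting of the authors' counting is not given in the sources used here. ITGB2-AS1, on the opposite strand, shares 303 exon bases with ITGB2, which is 4.46% of the ITGB2 exon bases. It was itself listed with 2, 5 and 3 counts in U87MG-control and 20, 19 and 15 counts in U87MG-LMO2, and both genes of the pair had more counts in every U87MG-LMO2 library than in any control.

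ITGAX, the alpha chain of a complement receptor of dendritic cells, was lower in U87MG-LMO2. It was at 0.69, 0.56 and 0.82 FPKM in U87MG-control and at 0.25, 0.11 and 0.28 FPKM in U87MG-LMO2. The groups did not overlap, and the log2 fold change was -1.61 (SE 0.337) with an edgeR adjusted p of 0.0288. The call was kept in 10 of 14 alternative analyses. It was lost without U87MG-control replicate 1, 2 or 3 and without U87MG-LMO2 replicate 1, with edgeR adjusted p values of 0.0721 to 0.12. The counts of ITGAX were not whole numbers, so part of its reads were shared with other features, and its level is uncertain to that extent. ITGAX lies at chr16:31355134-31382997 on the plus strand of GRCh38, next to ITGAM and ITGAD.

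The other leukocyte chains were below 1 FPKM as well. ITGAL, the partner of ITGB2 on lymphocytes, had means of 0.753 ± 0.146 and 0.723 ± 0.0737 FPKM, also from counts that were not whole. ITGAE, a chain of lymphocytes within epithelia, was at 0.37, 0.44 and 0.52 FPKM in U87MG-control and 0.79, 0.64 and 0.57 FPKM in U87MG-LMO2. Its groups did not overlap, but its edgeR adjusted p was 0.129. Of the ITGAE exon bases, 6.41% are shared with HASPIN on the opposite strand, which had 129.79 or more counts in every library. ITGA4 had 7 to 14 counts in the controls and 8 to 11 in U87MG-LMO2, while ITGAM and ITGAD had at most 3 counts in any library. ITGA9, which is placed here by ligand class and not by cell type, had at most 5 counts in any library. ITGA2B, the platelet fibrinogen receptor chain, had at most 7 counts.

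Most markers of blood cells were low in both groups as well. The leukocyte list had 7 genes analysed, of which 3 passed the count filter: ITGB2 itself, CD68 and LCP1, and CD68 and LCP1 were not called. LCP1, the leukocyte plastin, was at 1.08, 1.09 and 1.01 FPKM in U87MG-control and 1.43, 1.65 and 1.05 FPKM in U87MG-LMO2 (log2 fold change 0.42, edgeR adjusted p 0.228). PTPRC, the pan-leukocyte surface phosphatase, was at 0.24 to 0.36 FPKM in U87MG-control and at 0.37 to 0.38 FPKM in U87MG-LMO2. SPI1, the myeloid transcription factor, was at 0.08 to 0.21 and 0.15 to 0.43 FPKM, CD14 at 0.05 to 0.19 and 0.17 to 0.30 FPKM, and CD3E was at 0 in 5 of the 6 libraries. The summed level of the list was 214 to 285 FPKM in U87MG-control and 160 to 285 FPKM in U87MG-LMO2, nearly all of it from CD68, a lysosomal protein that was at 157.02 FPKM or more in every library. Of the platelet markers, 2 were tested, and GP1BA, a platelet receptor for von Willebrand factor, was called higher, from 0.62, 0.66 and 0.66 FPKM to 1.36, 1.28 and 1.02 FPKM (log2 fold change 0.95, edgeR adjusted p 0.0343), while GP6 was not called. The part of these markers in the ITGB2 result was not tested.

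Over the whole set, few chains were called. Of the 38 chains, 31 passed the count filter, 3 were called higher (ITGAV, ITGB2 and LAMA5) and 2 lower (ITGA6 and ITGAX) at an edgeR adjusted p under 0.05. Over all 16092 genes tested, 4.72% were called higher and 2.75% lower. ITGB2 and LAMA5 passed the filter through U87MG-LMO2 alone and are set apart in the next count. Of the 27 chains that passed in both groups, 1 was called higher and 2 lower. The median log2 fold change of the 31 chains was 0.04, against -0.01 over all genes tested. The groups did not overlap in normalised counts for 9 of the 31 chains, and for 34.1% of all genes tested. Without any 1 of the U87MG-control libraries, or without U87MG-LMO2 replicate 1, 0 chains were called higher and 1 lower. With these, edgeR gave 6 to 8 chains an unadjusted p under 0.05, and DESeq2 on all 6 libraries called 2 higher. Without U87MG-LMO2 replicate 2, 1 was called higher and 2 lower, and without replicate 3, 4 were called higher and 4 lower. The calls over all genes moved with them, from 1203 to between 144 and 225 without a control or U87MG-LMO2 replicate 1, to 883 without replicate 2 and to 2409 without replicate 3.

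**Figure D2:**
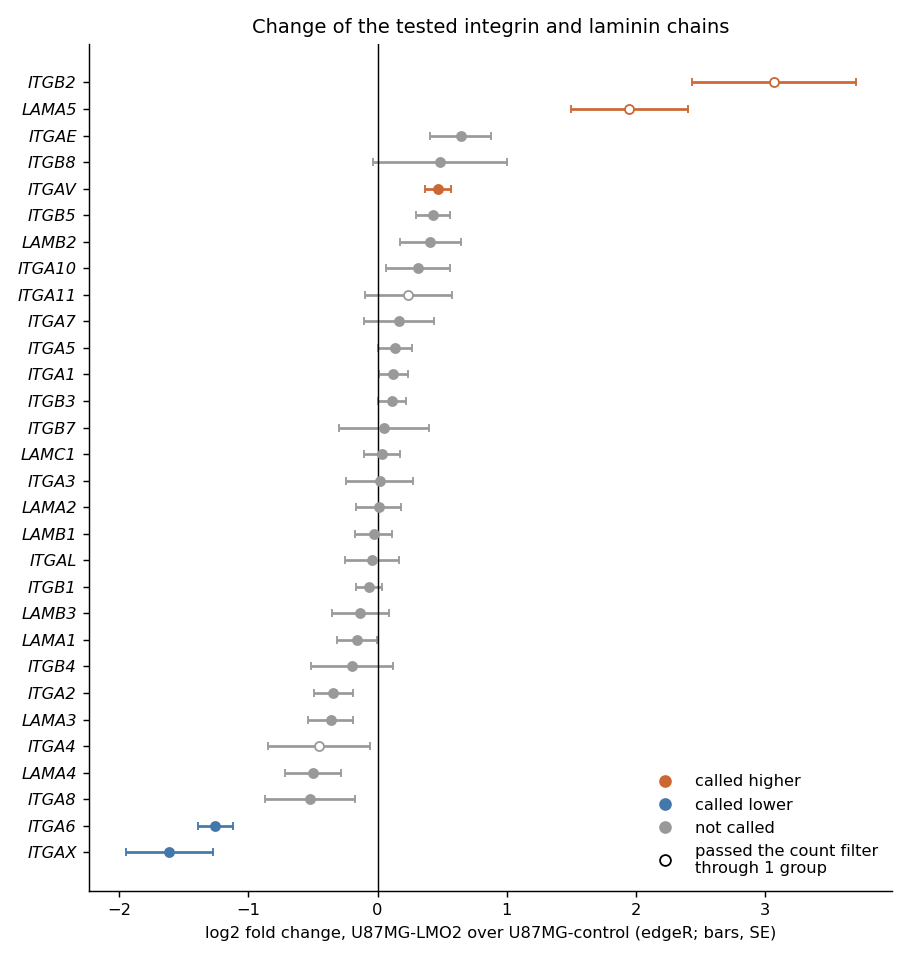
Log2 fold change of 30 of the 31 tested chains, U87MG-LMO2 over U87MG-control, from edgeR with bars of 1 SE; orange is called higher, blue called lower and grey not called, and open points passed the count filter through 1 group. ITGA6 at -1.26 has a short error bar, while ITGB2 and LAMA5, at the top, rest on few counts.

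The laminin alpha chains, which carry the sites that integrins bind, were dominated by LAMA4. LAMA4, the alpha chain of vascular laminins, was at 55.59, 47.78 and 47.15 FPKM in U87MG-control and at 31.36, 24.20 and 51.16 FPKM in U87MG-LMO2. It made up 84.9% ± 1.67 of the summed laminin alpha chain FPKM in U87MG-control and 80.4% ± 3.69 in U87MG-LMO2 (SD, n = 3). U87MG-LMO2 replicates 1 and 2 lay well below the controls and replicate 3 lay among them. Its log2 fold change of -0.50 (SE 0.218, edgeR adjusted p 0.19) was not called, and without U87MG-LMO2 replicate 3 it was -0.81 with an edgeR adjusted p of 0.00347.

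LAMA5, the alpha chain of the laminins most widespread in adult basement membranes, was higher in U87MG-LMO2 at a very low level. It had 10, 7 and 5 counts in U87MG-control and 27, 23 and 58 counts in U87MG-LMO2, which is 0.08, 0.05 and 0.03 against 0.18, 0.14 and 0.28 FPKM. The groups did not overlap, and the log2 fold change was 1.95 (SE 0.453) with an edgeR adjusted p of 0.0391. It passed the count filter through U87MG-LMO2 alone, and 6 of 14 alternative analyses kept the call. The GC-content correction gave 1.64 (edgeR adjusted p 0.051). Leaving out any 1 control or U87MG-LMO2 replicate 1 gave edgeR adjusted p values of 0.0789 to 0.151, and without U87MG-LMO2 replicate 3 the log2 fold change was 1.47 (0.0328). LAMA5 lies at chr20:62307955-62367312 on the minus strand of GRCh38, and 1.71% of its exon bases are shared with ADRM1 on the opposite strand, which had 3061 or more counts in every library.

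The other laminin alpha chains were not called. LAMA1, a chain of embryonic basement membranes, had means of 4.62 ± 0.792 and 4.0 ± 0.347 FPKM (SD, n = 3), and LAMA2, the chain of muscle and nerve, 3.233 ± 0.274 and 3.137 ± 0.621 FPKM. Their log2 fold changes were -0.16 and 0.01 (edgeR adjusted p 0.558 and 0.98). LAMA3, the chain of epithelial laminins, was at 1.10, 1.15 and 0.73 FPKM in U87MG-control and at 0.97, 0.58 and 1.02 FPKM in U87MG-LMO2, on both sides of the 1 FPKM that defined a present chain. Its FPKM overlapped between the groups while its normalised counts did not, and its log2 fold change was -0.36 (SE 0.173, edgeR adjusted p 0.228).

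The laminin beta and gamma chains were led by LAMB1, LAMB2 and LAMC1, which were close in level to one another in U87MG-control. LAMB1 was at 47.05, 45.74 and 50.67 FPKM in U87MG-control and at 43.25, 39.45 and 55.81 FPKM in U87MG-LMO2. The groups overlapped, with a log2 fold change of -0.03 (SE 0.142, edgeR adjusted p 0.909). LAMB2, the beta chain of synaptic and kidney laminins, was at 50.97, 52.38 and 55.10 FPKM in U87MG-control and at 63.30, 46.54 and 92.69 FPKM in U87MG-LMO2.

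U87MG-LMO2 replicate 3 was far above the other libraries for LAMB2, and the log2 fold change of 0.41 (SE 0.236, edgeR adjusted p 0.316) fell to 0.05 without it. The FPKM ratio of LAMB2 to LAMB1 was 1.08, 1.15 and 1.09 in U87MG-control and 1.46, 1.18 and 1.66 in U87MG-LMO2. All 3 U87MG-LMO2 ratios were above all control ratios, and this ratio was not tested. LAMB3, a beta chain of epithelial laminins, was at 22.75, 17.37 and 18.94 FPKM in U87MG-control and at 15.63, 13.26 and 22.85 FPKM in U87MG-LMO2. Its groups overlapped, with a log2 fold change of -0.13 (SE 0.221, edgeR adjusted p 0.742), and without U87MG-LMO2 replicate 3 it was called at -0.45 (edgeR adjusted p 0.0393).

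LAMC1, the gamma chain of most laminins, was at 45.46, 45.94 and 48.39 FPKM in U87MG-control and at 44.48, 40.45 and 53.62 FPKM in U87MG-LMO2. The groups overlapped, with a log2 fold change of 0.04 (SE 0.139, edgeR adjusted p 0.891). LAMC3 and LAMB4 had at most 2 counts in any library. In U87MG-control, LAMA4, LAMB1, LAMB2 and LAMC1 thus lay within a narrow band of means, from 46.6 to 52.82 FPKM, and the ranges of neighbours overlapped. The FPKM ratio of LAMA4 to LAMC1 was 1.22, 1.04 and 0.974 in U87MG-control and 0.705, 0.598 and 0.954 in U87MG-LMO2, below every control in each library, and it was not tested.

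The abundant chains shared a pattern within the U87MG-LMO2 group. Of the 11 chains of at least 10 FPKM, 9 (81.8%) had their highest U87MG-LMO2 value in replicate 3, among them 5 of 5 laminin chains, against 34.2% of the 6272 genes at that level. Replicate 2 was the lowest for 8 of the 11 (72.7%), against 30.8% of those genes. Replicate 3 exceeded the mean of replicates 1 and 2 by ratios of 1.86 for ITGA7, 1.84 for LAMA4, 1.80 for ITGA3, 1.69 for LAMB2, 1.58 for LAMB3, 1.35 for LAMB1 and 1.26 for LAMC1. ITGB1 and ITGB5 went the other way, at 0.804 and 0.785. ITGA3, LAMB2 and ITGA7 had the highest transcript GC content of the 11, at 61.3%, 60.3% and 60.2%, and ITGB1 the lowest, at 40.0%, while LAMA4 had 46.6%. The part of LMO2 level, depth and GC content in this pattern was not tested.

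**Figure D3:**
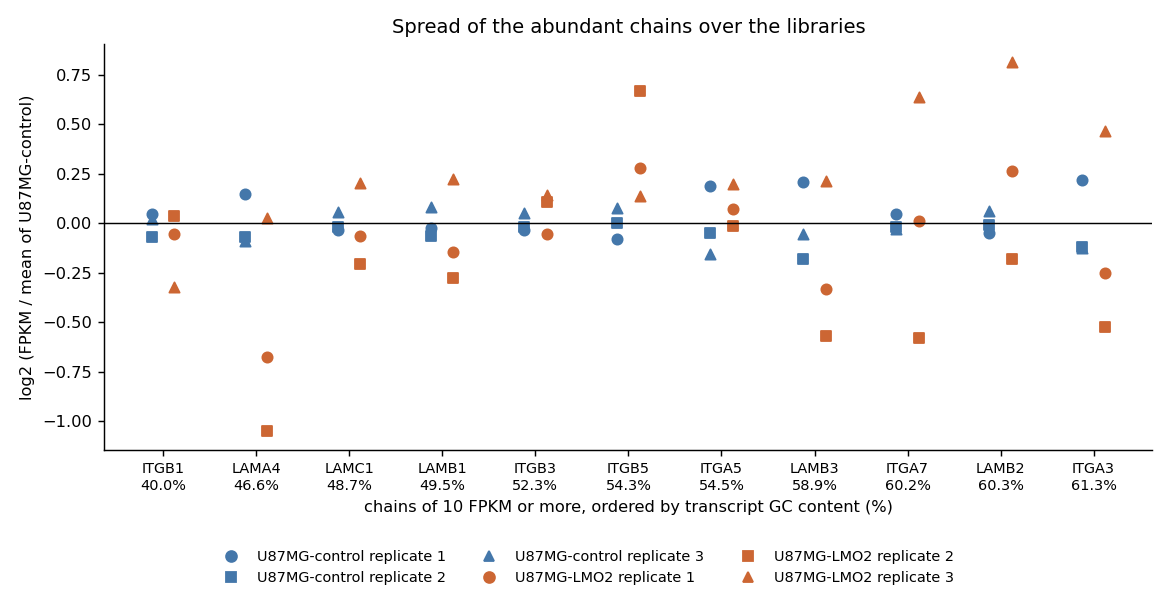
Log2 ratio of FPKM to the mean of U87MG-control for the 11 chains of at least 10 FPKM, ordered by transcript GC content in percent; colours are groups and marker shapes are replicates. U87MG-LMO2 replicate 3 (orange triangles) is the highest U87MG-LMO2 library for 9 of the 11 chains, and the controls lie close to 0.

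The complexes these chains can form were then read from a list of 24 integrin heterodimers and 14 laminin trimers. By mRNA, 10 heterodimers had both chains present in U87MG-control and the same 10 in U87MG-LMO2. They were ITGB1 with ITGA1, ITGA2, ITGA3, ITGA5, ITGA6, ITGA7, ITGA10 and ITGAV, and ITGAV with ITGB3 and with ITGB5. Presence of both mRNAs does not show that the pair is made or reaches the surface.

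By ligand, both chains were present for 3 of 4 laminin receptors, 3 of 4 collagen receptors, 4 of 8 RGD receptors and 0 of 8 leukocyte and VCAM receptors. The laminin receptor without its chains was ITGA6 with ITGB4, where ITGB4 was missing. ITGB4 was at 0.63, 0.56 and 0.50 FPKM in U87MG-control and at 0.36, 0.39 and 0.68 FPKM in U87MG-LMO2, so at a limit of 0.5 FPKM this pair was counted in U87MG-control alone, though its level overlapped between the groups. In ITGA3 with ITGB1 the scarcer chain was ITGB1, at 289 ± 11.9 FPKM in U87MG-control and 269 ± 33.7 FPKM in U87MG-LMO2 (SD, n = 3), and in each of the other 9 pairs it was the alpha chain. The 3 pairs of ITGAV were limited by ITGAV itself, at 8.32 ± 0.586 and 11.2 ± 1.03 FPKM. ITGA6 with ITGB1 was the pair whose scarcer chain was called lower, from 3.64 ± 0.268 to 1.49 ± 0.212 FPKM.

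Of the 14 laminin trimers, 6 had every chain present in both groups, namely laminins 111, 121, 211, 221, 411 and 421. In laminins 411 and 421 the scarcest chain was LAMC1 in U87MG-control, at 46.6 ± 1.57 FPKM, and LAMA4 in U87MG-LMO2, at 35.6 ± 14.0 FPKM (SD, n = 3). The 3 trimers of LAMA3, among them laminins 311 and 321, lacked only LAMA3, whose means of 0.993 ± 0.229 and 0.857 ± 0.241 FPKM lay just under the limit. With a limit of 0.5 FPKM, or of 1 TPM (FPKM rescaled to the same total in every library), these 3 were counted too and the number was 9 in either group, as it was in U87MG-control without replicate 3. FPKM summed to between 496267.1 and 534704.4 in a library, so 1 TPM lay close to 0.5 FPKM and was not a separate check. At 0.5 FPKM the heterodimers numbered 11 in U87MG-control and 10 in U87MG-LMO2, and at 1 TPM 10 in either group. Laminins 511 and 521, which ITGA3 with ITGB1 binds, lacked LAMA5, and those with a gamma 3 chain lacked LAMC3. With a limit of 5 FPKM, 6 heterodimers and 2 trimers were left in either group.

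**Figure D4:**
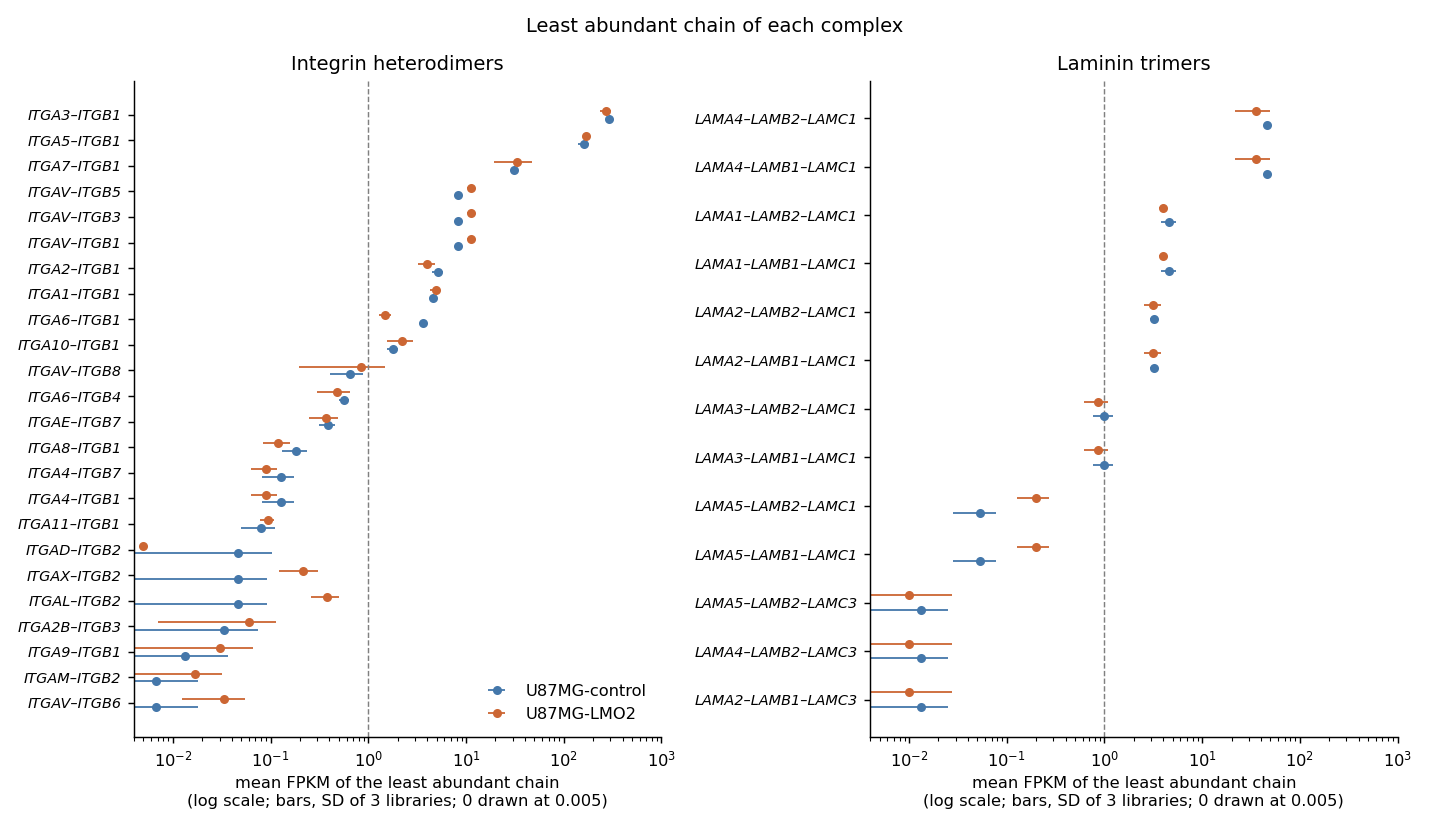
Mean FPKM of the least abundant chain of each of 24 integrin heterodimers (left) and 13 of 14 laminin trimers (right) by group, on a log axis with bars of 1 SD over 3 libraries; the dashed line is 1 FPKM. ITGA3 and ITGA5 with ITGB1 lie far above the other pairs, ITGA6 with ITGB1 is lower in U87MG-LMO2, and the 2 trimers of LAMA3 drawn lie at the line.

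Genes that work with these chains were examined in 4 lists with 110 genes in all, of which 87 passed the count filter. In these lists 17 genes were called higher and 6 lower, against 4.72% and 2.75% of all genes tested, whose median log2 fold change was -0.01. The lists were drawn up with earlier results of these data known, so these counts are not an independent test. Leaving out any 1 control left 2 called higher and 1 lower. Without U87MG-LMO2 replicate 1, 2 or 3, the counts were 6, 14 and 31 higher and 1, 2 and 10 lower. Over all genes tested, 760 were called higher and 443 lower, and without 1 control 102 to 123 higher and 42 to 56 lower. The counts over all genes without U87MG-LMO2 replicate 1, 2 or 3 were 177, 579 and 1307 higher and 48, 304 and 1102 lower.

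Of the intracellular adhesion machinery, 3 of 34 tested genes were called higher and 2 lower (4.72% and 2.75% over all genes), with a median log2 fold change of 0.22. TGFB1I1, the paxillin relative Hic-5, rose by a log2 fold change of 0.55 (SE 0.094, edgeR adjusted p 0.0153), from 27.88, 31.33 and 29.35 FPKM to 42.41, 41.78 and 41.34 FPKM. ZYX, the focal adhesion protein zyxin, rose by 0.55 (edgeR adjusted p 0.0308). PTK2, the focal adhesion kinase, went from 49.41, 43.16 and 47.80 FPKM to 31.98, 30.74 and 30.88 FPKM, a log2 fold change of -0.54 (SE 0.097, edgeR adjusted p 0.0188). ITGB1BP1, an inhibitor of beta 1 integrin activation, had a log2 fold change of -0.39 (edgeR adjusted p 0.0391). TLN1, the talin that activates integrins, was not called, at -0.06 (edgeR adjusted p 0.782).

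Of the tetraspanins and other membrane partners, 5 of 15 were called higher and 0 lower (4.72% and 2.75% over all genes), with a median log2 fold change of 0.36. CD151, the tetraspanin that binds ITGA3 and ITGA6 directly, rose from 212.85, 229.42 and 218.70 FPKM to 282.92, 289.06 and 324.10 FPKM (log2 fold change 0.49, SE 0.112, edgeR adjusted p 0.0377). The groups did not overlap. TSPAN4, a tetraspanin of migrasomes, rose by 0.74 (edgeR adjusted p 0.0228), SDC4, a heparan sulfate co-receptor for fibronectin, by 0.70 (0.028), BSG, the matrix metalloproteinase inducer basigin, by 0.40 (0.0345), and CAV1, the caveolar scaffold, by 0.43 (0.0356).

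Of the non-laminin ligands, 5 of 20 tested genes were called higher and 3 lower (4.72% and 2.75% over all genes), with a median log2 fold change of 0.33. One of the 5, POSTN, passed the count filter through U87MG-LMO2 alone. CCN1, a matricellular ligand of ITGAV integrins, rose from 32.76, 32.65 and 30.59 FPKM to 78.21, 118.56 and 72.06 FPKM (log2 fold change 1.52, SE 0.17, edgeR adjusted p 0.0039). CCN2, its close relative, rose by 1.75 (edgeR adjusted p 0.00813). TGFBI, an RGD protein induced by TGF-beta, rose by 1.30 (0.0242) and TNC, tenascin C of glioma matrix, by 0.67 (0.0197). In the other direction, SPP1, the RGD protein osteopontin, went from 235.61, 266.55 and 261.83 FPKM to 113.95, 93.30 and 115.38 FPKM (log2 fold change -1.21, SE 0.121, edgeR adjusted p 0.00293). THBS2, a thrombospondin, and ICAM2, a ligand of ITGAL with ITGB2, had log2 fold changes of -0.83 and -1.18 (edgeR adjusted p 0.03 and 0.0443). FN1, the fibronectin bound by ITGA5 with ITGB1, had a log2 fold change of 0.99 that missed the threshold (edgeR adjusted p 0.0755).

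Of the basement membrane partners and non-integrin laminin receptors, 4 of 18 were called higher and 1 lower (4.72% and 2.75% over all genes), with a median log2 fold change of 0.32. HSPG2, the heparan sulfate proteoglycan perlecan, rose from 6.24, 7.4 and 7.96 FPKM to 19.88, 14.63 and 30.57 FPKM (log2 fold change 1.65, SE 0.269, edgeR adjusted p 0.0133). NID2, a nidogen that ties laminin to collagen IV, rose by 1.08 (edgeR adjusted p 0.0114), SPARC, a collagen IV binding protein, by 0.81 (0.00787) and NTN4, a netrin that binds laminin gamma chains, by 0.82 (0.0287). COL4A6, a collagen IV chain, had a log2 fold change of -1.46 (edgeR adjusted p 0.0393). DAG1, the dystroglycan that binds LAMA1 and LAMA2, was not called, at 0.34 (edgeR adjusted p 0.0946). The laminin chains LAMB1 and LAMC1, at log2 fold changes of -0.03 and 0.04, did not pass the test beside these partners, and the difference between them and the partners was not tested.

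**Figure D5:**
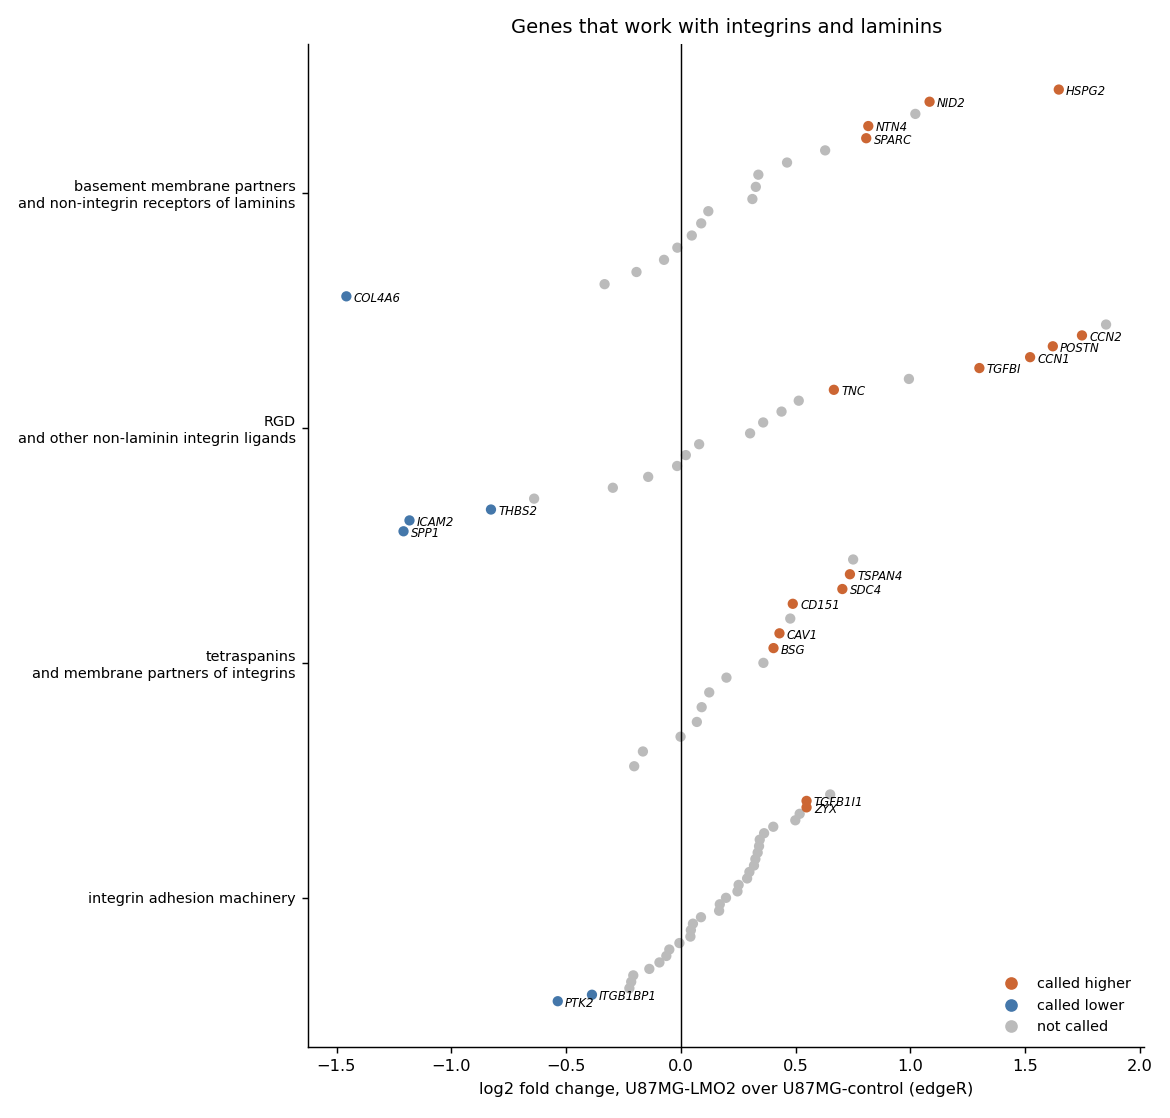
Log2 fold change, U87MG-LMO2 over U87MG-control, of 86 of the 87 tested genes in 4 lists of integrin and laminin partners; each point is 1 gene, ordered by its change within its list, with genes called by edgeR in orange (higher) or blue (lower) and named. HSPG2, CCN1 and CCN2 lie to the right, SPP1 and COL4A6 to the left, and all 5 called membrane partners lie to the right of 0.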

How the data were processed

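Total RNA of 6 libraries was sequenced. For each library the authors deposited an expected count per gene, which need not be whole, and an FPKM value. The authors' comparison table (deposited group means of FPKM, log2 ratio and probability) served for gene names and for a check of the means, and its comparison columns were not used. The submitters' processing notes name Bowtie2, BWA and GRCh38.p12, and roles and versions are not given in the sources used here. In U87MG-LMO2 replicate 3, whose table had 3 unreadable lines, 134 genes, 0 of them integrin or laminin chains, differed from the authors' mean (tolerance 0.0005 FPKM) and were left out of tests.

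Expected counts were rounded and tested with edgeR 4.0.16 in R 4.3.3 (filterByExpr with a minimum count of 10, TMM, quasi-likelihood test, 2-sided, no block). P values were Benjamini-Hochberg adjusted over 16092 genes, and SE was computed from the fold change and F statistic. Tested on simulated data, edgeR recovered 94.5% of 200 changed genes with 5.50% false calls. Those changed genes were all well counted and changed at least 2-fold. The rates therefore do not cover chains with few counts, such as ITGB2, LAMA5 and ITGAX, or smaller changes, such as that of ITGAV. Alternatives were DESeq2 1.42.0, upper-quartile scaling, no filter, 10 counts in every library, limma 3.58.1 on log2(FPKM + 1) and log2(FPKM + 0.1), replicate block, GC-content and gene-length correction (lowess span 0.3), and leaving out each library. Positions, exons and GC content came from GENCODE release 29.

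The chains, complexes and lists were chosen with earlier results of these data known. The rule for named genes gave called chains and chains of at least 10 FPKM in full, and up to 4 called genes per direction of each list. Beside these, CD151, POSTN, TLN1, FN1, DAG1, LCP1, GP1BA, GP6, OLIG2, COL1A1 and ITGB2-AS1 were named after their values were seen. Values of 1 chain and 1 list gene are not reported here, though counts include them. Group and replicate number came from the labels, which do not say that replicates were separate cultures, so p values measure the spread between these libraries. Depth limits precision at low counts, and intervals cover counting error only.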

Additional observations from a re-analysis of the deposited data

How the results depend on the processing

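The 15 alternative analyses kept the call of ITGA6. The number of chains called higher went from 3 to 1 with at least 10 counts in every library and with limma on log2(FPKM + 1) or log2(FPKM + 0.1), to 0 with the replicate block (8 chains at an unadjusted p under 0.05, and 2 called higher by DESeq2), and ranged from 0 to 4 when 1 library was left out. The number called lower was 1 with at least 10 counts in every library and 1 to 4 when 1 library was left out, in place of 2. With that filter fewer chains were tested (24). Over all genes, 760 were called higher and 443 lower in the main analysis, and 387 higher and 189 lower with the replicate block. The limma tests called 521 and 512 genes higher, and the filter of 10 counts in every library 718. With 1 library left out, 102 to 1307 genes were called higher and 42 to 1102 lower. In the partner lists, 9 in place of 17 genes were called higher with the replicate block, 2 to 31 were called higher and 1 to 10 lower when 1 library was left out. With 5 FPKM as the limit, 6 heterodimers and 2 trimers had their chains in either group, in place of 10 and 6. Same-numbered libraries did not deviate together (correlations of -0.117, -0.003 and -0.041), and libraries of different number gave -0.035 to 0.087. With 3 libraries in each group, these values cannot decide whether the numbers pair the libraries.

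Of 311 recomputed changes of 21 chains, 22 changed sign, none past the threshold (smallest adjusted p 0.0572). ITGA3 was at -0.095 under both limma tests, -0.059 under the replicate block, -0.227 with the GC-content correction and -0.386 to 0.226 with 1 library left out. ITGA7 (-0.054) and ITGB1 (0.105) changed sign with the GC-content correction, and ITGA7 ranged from -0.247 to 0.426 with 1 library left out. LAMA2 was at -0.042 and -0.056 under limma with pseudocounts of 1 and 0.1, at -0.016 under the block and at -0.218 to 0.134 with 1 library left out, and LAMC1 was at -0.022 under both limma tests and at -0.134 to 0.140 with 1 left out. With 1 left out, LAMB1 ranged from -0.203 to 0.075 and LAMB3 from -0.449 to 0.041. The causes were not tested. Chains below 1 FPKM rest on few counts, and at this depth their changes are known only roughly.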
